A study of Mus musculus with 2 samples.

Results

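The genes described here carry long-chain fatty acids into the absorptive cell, hold them in the cytosol and activate them: the uptake transporters Cd36, Slc27a1, Slc27a2 and Slc27a4, the binding proteins Fabp1 and Fabp2, and the long-chain acyl-CoA synthetases Acsl1, Acsl3, Acsl4 and Acsl5. They were chosen by gene name, as every non-control probe that carried 1 of these 10 names on both arrays, which gave 11 probes among 55681. After naming of the probes the 10 genes stood among 23418 named genes, of which 12727 were measured on both arrays. In the cholic acid group, intestinal segments of wild type male mice had been kept for 2 h with 0.5 µM cholic acid, a primary bile acid, before RNA was taken from the epithelial cells. In the vehicle group, segments of the same kind had been kept for 2 h with 0.05% DMSO and 0.25% ethanol. The labels give this solvent for the vehicle and do not say whether it was also present with cholic acid, how many mice were used, or from which stretch of the intestine the segments came. The title of the series asks for bile acid-dependent targets of PPARα. Each group had 1 one-colour array, so nothing below could be checked against replicates, no test was possible, and changes are described by size alone.

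Long-chain fatty acids released by digestion cross the brush border of enterocytes, where the scavenger receptor CD36 and the fatty acid transport proteins of the Slc27 family take part in uptake. Inside the cell they are carried by fatty acid binding proteins, and acyl-CoA synthetases join them to coenzyme A, which traps them and commits them to triacylglycerol synthesis or oxidation. Many of these genes are known targets of PPARα, a nuclear receptor that is activated by fatty acids and binds DNA together with a retinoid X receptor.

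Values are Feature Extraction processed signals, which are background-subtracted intensities in arbitrary units. To compare the arrays, each was divided by the 75th percentile of the probes well above background on both, which was a signal of 741 on the cholic acid array and 1060 on the vehicle array. A signal is therefore given unscaled, and a log2 difference is always cholic acid minus vehicle after scaling. On either array all 11 member probes were well above background, none was saturated, and each was a single spot. The ± beside a signal is the scanner software's own error for that spot, and its counterpart on the log2 difference is called the error-model SE. Neither holds any spread between animals or cultures. The error-model SE lay between 0.20 and 0.23 for every member probe, so a multiple of it mostly restates the size of the difference. Another yardstick came from 227 probes spotted 10 times, whose repeated spots differed by a median SD of 0.094 in the log2 difference. Over those of them below their median signal it was 0.162, and the 95th percentile of the SD over all 227 was 0.334. The last is the robust SD of the difference among the 1000 genes nearest in mean signal. Across the 12727 genes the median difference was 0.08, and the arrays correlated at Pearson r = 0.978 over genes, which are not independent replicates.

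One member carries a doubt about its label. Each probe's value in the authors' deposited table was set against its scanner signal, and among 18441 single-spot probes with a signal above 32 on both arrays only 4 lay over 0.03 on the log2 scale off the common curve on both arrays. These were the probes named Slc27a2, Slc22a4, Slc15a1 and Gstt1. In the authors' deposited table, Slc27a2 has values of 1636 for cholic acid and 5507 for vehicle, which match within 0.01 on the log2 scale the spot that the scanner files name Slc15a1, the gene of the peptide transporter PepT1. The deposited values of Slc22a4 match in the same way the spot that the scanner files name Slc27a2, and those of Slc15a1 match the spot they name Slc22a4. Which of the sources has the names in the right places cannot be told from these files, so Slc27a2 is given below from both. The largest such gap over the 9 other member probes with a curve at their signal was 0.009.

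Of the 10 genes, Cd36 and Slc27a2 were at least 2-fold lower after cholic acid, and none was at least 2-fold higher. Among all 12727 genes, 2.06% were at least 2-fold lower and 6.49% at least 2-fold higher. In all, 7 of the 10 members had a difference below 0, against 42.8% of all genes, and the same number lay below the median of all genes. The median member difference was -0.35, with a range of -1.19 to 0.76. By role, the median was -0.64 over the 4 transporters, 0.17 over the 2 binding proteins and -0.50 over the 4 synthetases. At a limit of 1.5-fold, 3 members were lower, against 7.71% of all genes, and 2 were higher, against 17.7% of all genes. With 10 genes and 1 array in each group, these counts describe the 2 arrays and call nothing particular to the pathway.

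**Figure D1:**
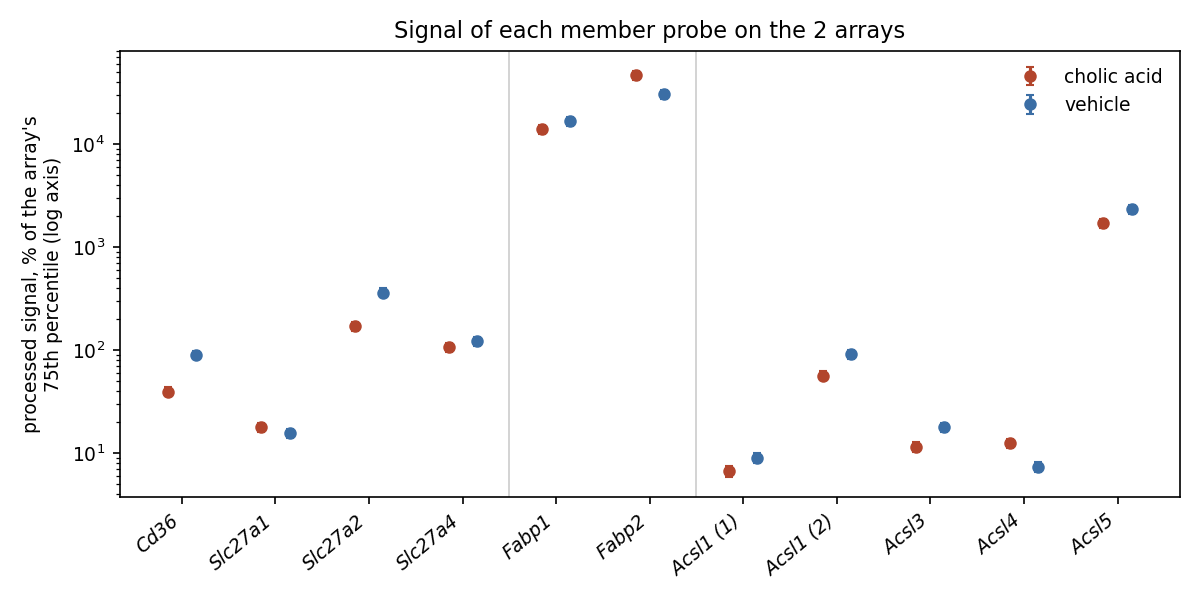
Processed signal of each of the 11 member probes, as percent of the array's 75th percentile on a log axis, with cholic acid on the left of each pair and vehicle on the right; bars are the scanner software's error for the spot and are often smaller than the point. Cd36 and Slc27a2 have the widest gaps, while Slc27a1, Fabp2 and Acsl4 are the 3 members with the cholic acid point above the vehicle point. Heights of different probes should not be set against each other, since probes differ in how they hybridize.

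Among the uptake transporters, Cd36 was the member with the lowest difference. CD36 is a membrane glycoprotein of the brush border that binds long-chain fatty acids. Its signal was 295 ± 29.6 with cholic acid and 961 ± 96.2 with vehicle. After scaling it was 2.28-fold lower with cholic acid, a log2 difference of -1.19 with an error-model SE of 0.20. The difference was 5.8 times that error, and 1.00% of the 1000 genes nearest in signal had a lower one. From the lowest, Cd36 stood at place 141 of the 12727 genes. In the authors' deposited table its log2 difference was -1.24. The probe lies at chr5:17288600-17288659 of mm9 on the minus strand.

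Slc27a2 encodes FATP2, a transport protein that also has very-long-chain acyl-CoA synthetase activity. The spot with this name in the scanner files read 1280 ± 128 with cholic acid and 3860 ± 386 with vehicle. Scaled, it was 2.11-fold lower with cholic acid, with a log2 difference of -1.08 and an error-model SE of 0.20. Here 2.20% of the 1000 nearest genes were lower. The spot that matches the authors' values, named Slc15a1 in the scanner files, read 1340 with cholic acid and 6430 with vehicle and was 3.35-fold lower. In the authors' deposited table the difference of Slc27a2 is -1.75. Slc27a2 was thus at least 2-fold lower with cholic acid under either naming, and the size of the difference depends on the naming. The probe with this name in the scanner files lies at chr2:126413890-126413949 of mm9.

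Slc27a4 and Slc27a1 stayed close to the bulk of genes. Slc27a4 encodes FATP4, the family member known for its high level in the small intestine. Its signal was 794 ± 79.5 with cholic acid and 1300 ± 130 with vehicle, a scaled difference of -0.19, which was 1.0 times its error-model SE of 0.20. Slc27a1, which encodes FATP1, a transporter known mainly from muscle and fat, read 133 ± 13.8 with cholic acid and 167 ± 17.2 with vehicle. Its scaled difference of 0.19 was 0.9 times its SE of 0.21, and its sign turned with the scaling. Neither gene differed by more than its error-model SE. Their probes lie at chr2:29672983-29673042 and chr8:74110256-74110315 of mm9.

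The first 30 of the 60 bases of the probes on which the members discussed most rest are shown 5′ to 3′ as the scanner files give them. For Slc27a2 this is the probe of that name in the scanner files, whose label is in doubt as described above. Acsl1 is shown with both of its probes, and Acsl4 as the member with the highest difference.
Cd36: aagaatgaaaaatgaacaattcacatgtga
Slc27a2: atgtgcacctgccatttgtccttgcaaact
Fabp2: aggctcattcgtcatcctatcagcactggt
Acsl1, first probe: agagctacggaactatttcaggtcgcagat
Acsl1, second probe: gcctaacttcatactcgtattcttaattgc
Acsl4: cacgattgtaggattgttccttagattttt

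The 2 cytosolic binding proteins differed in sign. Fabp1, the liver-type protein, is expressed strongly in proximal small intestine as well as liver. Its signal was 104000 ± 10400 with cholic acid and 179000 ± 17900 with vehicle, which after scaling was 1.20-fold lower with cholic acid. That log2 difference of -0.27 was 1.3 times its error-model SE of 0.20. It was larger, -0.88, in the authors' deposited table. Fabp2, the intestinal-type protein, read 346000 ± 34600 with cholic acid and 325000 ± 32500 with vehicle. Scaled, Fabp2 was 1.52-fold higher with cholic acid, a difference of 0.61 and 3.0 times its SE of 0.20, and 93.1% of the 1000 nearest genes had a lower difference. In the authors' deposited table, however, Fabp2 differed by 0.06. Quantile normalization of the scanner signals, which the deposited table also carries, lowered the differences of both genes in the same way. The probes lie at chr6:71154906-71154965 for Fabp1 and chr3:122602276-122602335 for Fabp2 on mm9.

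**Figure D2:**
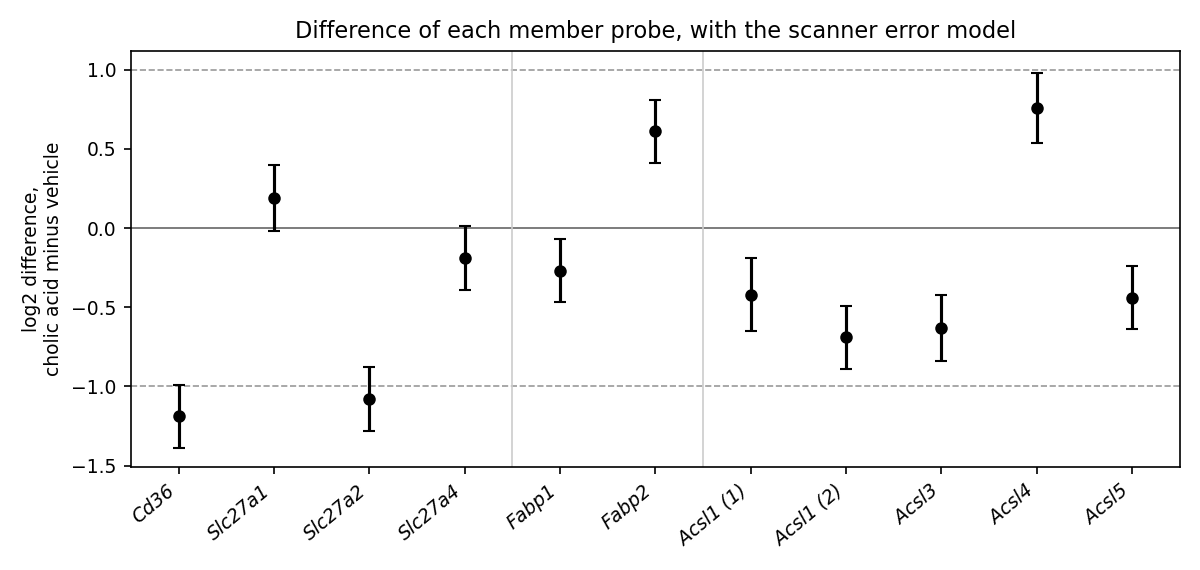
Log2 difference of each member probe, cholic acid minus vehicle, scaled to the 75th percentile; bars are the error-model SE and dashed lines mark 2-fold. Only Cd36 and Slc27a2 lie past a dashed line, both below, and both Acsl1 probes lie below 0.

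Of the long-chain acyl-CoA synthetases, 3 of 4 were lower with cholic acid and none reached 2-fold. Acsl5, a synthetase known as a major form of the intestinal mucosa, had a signal of 12800 ± 1280 with cholic acid and 24800 ± 2480 with vehicle. Its difference was -0.44, or 1.35-fold lower, which was 2.1 times its error-model SE of 0.20. Acsl1, the main form in liver, fat and heart, was read by 2 probes that went the same way. The first had 49.9 ± 5.92 with cholic acid and 95.7 ± 10.2 with vehicle, a difference of -0.42 with an SE of 0.23. The second had 422 ± 42.3 with cholic acid and 973 ± 97.3 with vehicle, a difference of -0.69 with an SE of 0.20. Averaged over both probes, Acsl1 was 1.47-fold lower with cholic acid, a difference of -0.56. In the authors' deposited table the probes gave -0.71 and -0.72.

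Acsl3 and Acsl4 went opposite ways. Acsl3, an enzyme of the endoplasmic reticulum and of growing lipid droplets, read 86.1 ± 9.19 with cholic acid and 191 ± 19.4 with vehicle. It was 1.55-fold lower with cholic acid, a difference of -0.63 and 3.0 times its error-model SE of 0.21. Acsl4, which prefers arachidonic acid and other polyunsaturated fatty acids, read 92.9 ± 9.78 with cholic acid and 78.6 ± 8.52 with vehicle. It was 1.69-fold higher with cholic acid, a difference of 0.76 and 3.5 times its SE of 0.22, the highest of the members. Both are dim probes, where genes spread more: the robust SD of the 1000 nearest genes was 0.49 for Acsl3 and 0.52 for Acsl4, and 82.3% of the genes nearest to Acsl4 had a lower difference. The authors' deposited table gives -0.83 for Acsl3 and 0.50 for Acsl4. On mm9 the Acsl1 probes lie at chr8:47619774-47619833 and chr8:47621232-47621291, Acsl3 at chr1:78703500-78703559, Acsl4 at chrX:138752591-138752650 on the minus strand, and Acsl5 at chr19:55368743-55369331, a span of 589 bases for a probe of 60. Whether these stretches are coding or UTR was not looked up on mm9.

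**Figure D3:**
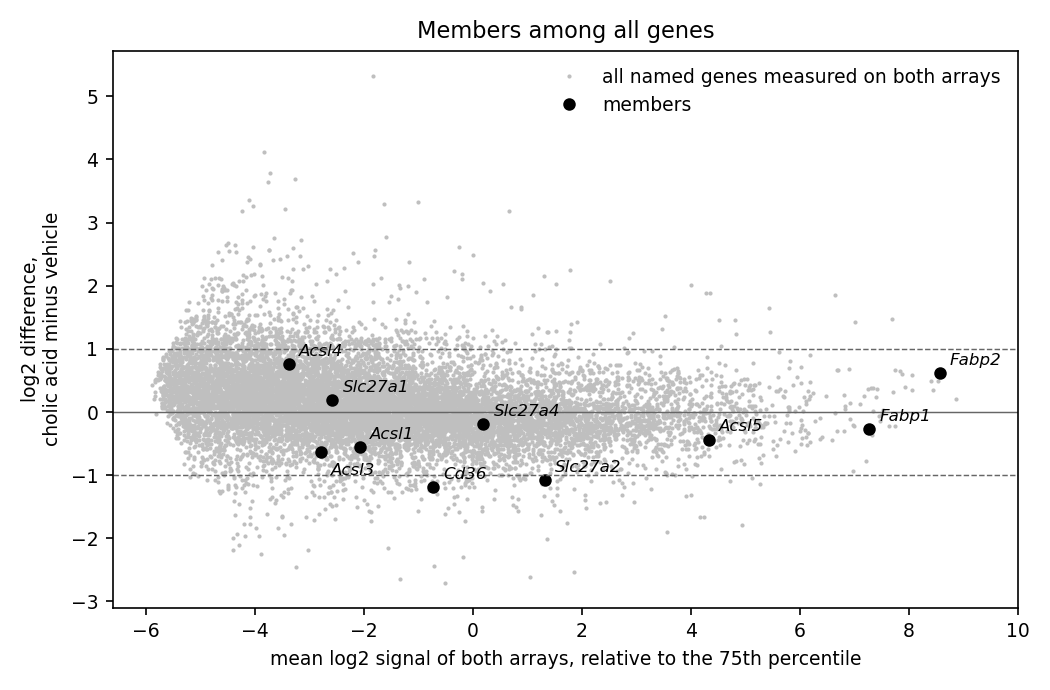
Log2 difference, cholic acid minus vehicle, against the mean scaled log2 signal of both arrays for 12727 named genes (grey) and the 10 members (black); dashed lines mark 2-fold. Cd36 and Slc27a2 lie below the lower dashed line, and the grey cloud is wider at low signal, where Acsl3, Acsl4 and Slc27a1 lie.

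Since the series asks about PPARα, the 250 bases before the RefSeq start of each member were searched for letters of its binding motif. RefSeq sequence on GRCm38.p6 was found for all 10 members, 13 promoters in all. PPAR and retinoid X receptor pairs bind direct repeats of the core AGGTCA with 1 base between the copies. The exact repeat, AGGTCA followed by any 1 base and AGGTCA again, on either strand, is in 11 of 32851 promoters of this length (0.0335%) and in no member promoter. With both copies loosened to AGGNCA, where N is any base, it is in 111 (0.338%), among them that of Fabp1, on the opposite strand, from base -67 to base -55 before the start. The core AGGTCA alone, on either strand, is in 4607 (14.0%) and in 3 of the 13 member promoters. These belong to Cd36, Slc27a2 and Fabp1, of which only Fabp1 has the loosened repeat. Each time the core is on the opposite strand, so that it reads TGACCT below. In Fabp1 it occurs at base -67, where it overlaps the repeat, and again at base -9. In Cd36 it begins at base -228 and in Slc27a2 at base -220. A match of letters is a description and does not by itself show a binding site. The 3 promoters are shown because they hold the core and 2 of them belong to the members that were at least 2-fold lower; each is written 5′ to 3′ on the gene's strand, with the core, and in Fabp1 also the whole loosened repeat, in capitals. Their positions on GRCm38.p6 are chr5:17835897-17836146 on the minus strand for Cd36, chr2:126552774-126553023 for Slc27a2 and chr6:71199629-71199878 for Fabp1.
Cd36: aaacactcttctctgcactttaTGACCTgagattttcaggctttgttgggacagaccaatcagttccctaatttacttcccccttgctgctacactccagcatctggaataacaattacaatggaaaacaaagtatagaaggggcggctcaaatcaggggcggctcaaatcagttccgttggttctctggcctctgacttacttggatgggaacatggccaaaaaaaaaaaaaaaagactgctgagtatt
Slc27a2: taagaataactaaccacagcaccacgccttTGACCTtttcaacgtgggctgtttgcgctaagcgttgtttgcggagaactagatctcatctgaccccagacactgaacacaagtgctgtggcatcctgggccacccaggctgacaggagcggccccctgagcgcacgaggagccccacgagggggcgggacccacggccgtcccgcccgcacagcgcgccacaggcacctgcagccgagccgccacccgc
Fabp1: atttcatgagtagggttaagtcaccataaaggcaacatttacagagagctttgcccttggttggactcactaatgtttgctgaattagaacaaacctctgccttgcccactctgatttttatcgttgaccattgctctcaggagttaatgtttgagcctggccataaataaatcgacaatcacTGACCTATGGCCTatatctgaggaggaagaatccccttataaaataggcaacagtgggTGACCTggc

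Under the reported setting the receptors themselves stayed close to the bulk of genes. All 9 genes of the PPAR list, which holds the 3 PPARs, the 3 retinoid X receptors, 2 coactivators and Hnf4a, were measured. None was 2-fold apart as reported, and 1 was at least 2-fold lower with either looser filter on dim probes. The median difference of the 9 was -0.22 and 8 of 9 lay below the median of all genes. The widest were Pparg, the adipogenic form, with 240 for cholic acid and 442 for vehicle (-0.36), and Ppard, the widely expressed form, with 1550 for cholic acid and 2830 for vehicle (-0.35). Ppara read 532 with cholic acid and 886 with vehicle as the mean of 3 probes, a difference of -0.22, with 2 probes lower and 1 higher.

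Relatives of the members and the steps after activation were counted over lists of the pathway. Of 8 other fatty acid binding proteins, 4 were measured, 2 were at least 2-fold higher and none lower. Fabp6, the ileal bile acid binding protein, read 1320 with cholic acid and 47.3 with vehicle and was 39.9-fold higher. Fabp6 had the highest difference of all 12727 genes, 5.32. Its vehicle signal was low: negative control spots of that array read up to 39.6, with a median of 3.33. Fabp5, the epidermal-type protein, read 473 with cholic acid and 283 with vehicle and was 2.39-fold higher. Both were past 2-fold under all 12 other processing settings tried, with differences from 4.14 to 5.32 for Fabp6 and from 1.03 to 1.26 for Fabp5. Each has 1 probe, whose value the settings that change only filter, naming or probe rule cannot move. Of 16 other transport proteins and synthetases, 7 were measured and none was at least 2-fold lower. Acsbg1, a bubblegum-type synthetase, was 2.08-fold higher, with 125 for cholic acid and 86.0 for vehicle, a size kept in 4 of those 12 settings. These 4 were the other probe rules, naming by accession and flagged spots kept, which hardly touch its 1 passing probe. Under every other scaling, normexp, the deposited values and the looser filters it was below 2-fold, with a lowest difference of 0.62. Slc27a5, which encodes the liver bile acid-CoA ligase, was well above background with vehicle alone. As the mean of 2 probes it read 9.56 with cholic acid and 42.2 with vehicle, and it was at least 2.41-fold lower with cholic acid. That vehicle value lies close to the 39.6 of the brightest negative control spot. For such a bound, each probe's value on the bright array was set against the dim array's lowest signal well above background, or the dim probe's own if higher. Of 8 other uptake proteins and fatty acid receptors, 5 were measured. Scarb1, the scavenger receptor SR-BI, read 18.2 with cholic acid and 112 with vehicle and was 4.30-fold lower, rank 12 from the lowest of all genes. It was measured by 1 of its 2 probes, its difference ranged from -2.44 to -0.60 under the 12 other settings, and it was past 2-fold in 10 of 12. Its cholic acid signal was near the floor: negative control spots of that array read up to 19.2, with a median of 3.10.

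Downstream of activation no measured gene of 3 lists was 2-fold apart under the reported scaling. Among the acyl-CoA binding proteins 5 of 6 were measured, with a median of -0.09, and Acbd3 (-0.36) and Acbd4 (-0.34) were the widest. Among the acyl-CoA thioesterases, which release the free acid again, 12 of 14 were measured with a median of 0.04. The widest there were Acot3, with 50.1 for cholic acid and 37.5 for vehicle (0.93), and Acot10, with 42.3 for cholic acid and 114 for vehicle (-0.91). Acot10 ranged from -1.20 to -0.20 and was at least 2-fold lower in 5 of the 12 other settings. Among the genes of esterification to triacylglycerol 12 of 16 were measured, with a median of -0.25, and 9 of 12 lay below the median of all genes. Agpat3, a lysophosphatidic acid acyltransferase family member, read 992 with cholic acid and 2460 with vehicle (-0.79), and was at least 2-fold lower in 1 of the 12. Dgat2, an enzyme of the last step of triacylglycerol synthesis, read 10700 with cholic acid and 24700 with vehicle (-0.69). Mogat1, a monoacylglycerol acyltransferase, was well above background with vehicle alone and at least 2.95-fold lower with cholic acid.

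Markers of cell types moved between the arrays beside these genes. All 12 enterocyte markers were measured, 10 of them below 0, with a median of -0.47, and the defining marker Vil1 had a difference of -0.01. Their summed signal was 80266% of the array's 75th percentile with cholic acid and 86527% with vehicle. This sum rests largely on the brightest markers. One of those is Anpep, 1 of the 2 above 0, with 209000 for cholic acid and 226000 for vehicle (0.40). All 8 measured T cell markers of 9 were above 0, 3 of them at least 2-fold, with a median of 0.86 and sums of 1825% with cholic acid and 1001% with vehicle. They were above 0 in every setting tried, while the number at least 2-fold higher ranged from 1, with the percentile over all probes or the median, to 4, with the looser filters on dim probes. Of the 7 B and plasma cell markers 5 were measured, 4 of them at least 2-fold higher, with sums of 433% with cholic acid and 319% with vehicle. These sums rest largely on Jchain, the brightest of the 5, which read 2190 with cholic acid and 3100 with vehicle (0.02). Ms4a1, which marks B cells, was well above background with cholic acid alone, with 164 for cholic acid and 3.73 for vehicle, and was at least 16.1-fold higher with cholic acid. The difference of most members lay in the range of the enterocyte markers, from -0.95 to 0.40. Cd36, Slc27a2, Fabp2 and Acsl4 lay outside this range. Its ends, Mme and Anpep, stood at places 308 and 9301 of the 12727 genes from the lowest. The range thus held most of all genes too. The part that cell makeup had in the members' values was not tested, and in such bulk RNA fewer cells of a type and less RNA per cell cannot be told apart.

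Markers of other cell types were counted in the same way. Of 6 adipocyte markers, Adipoq, Plin1, Lep, Cfd and Retn were not well above background on either array, and Cidec, which read 1098 with cholic acid and 2770 with vehicle, was the 1 measured. Of 7 myeloid markers 5 were measured, with a median of 0.27 and sums of 291% with cholic acid and 285% with vehicle. Of 7 endothelial markers 3 were measured, with a median of 0.40 and sums of 69.2% with cholic acid and 53.7% with vehicle. Of 9 smooth muscle and fibroblast markers 6 were measured, with a median of 0.72 and sums of 137% with cholic acid and 99.0% with vehicle.

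Genes that mark a stretch of the small intestine also differed, and Fabp1, Fabp2 and Cd36 are themselves known to be graded along it. Of 9 distal markers 8 were measured and 3 were at least 2-fold higher: Fabp6, the ileal bile acid carrier Slc10a2 (266 with cholic acid and 79.4 with vehicle, 2.26) and Gcg (149 with cholic acid and 106 with vehicle, 1.01). Cubn, the ileal receptor cubilin, went the other way, with 573 for cholic acid and 1573 for vehicle (-0.94). With the percentile over all probes, the median, quantile normalization, loess or the authors' deposited table, 2 distal markers were at least 2-fold higher and 1 lower, and with normexp 2 were higher and 0 lower. Of 9 proximal markers 7 were measured. Onecut2, a transcription factor of proximal intestine, read 294 with cholic acid and 2070 with vehicle and was 4.92-fold lower, while S100g, which binds calcium in the duodenal enterocyte, read 1537 with cholic acid and 359 with vehicle and was 6.12-fold higher. The labels do not give the position of either segment, so position and treatment cannot be told apart.

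**Figure D4:**
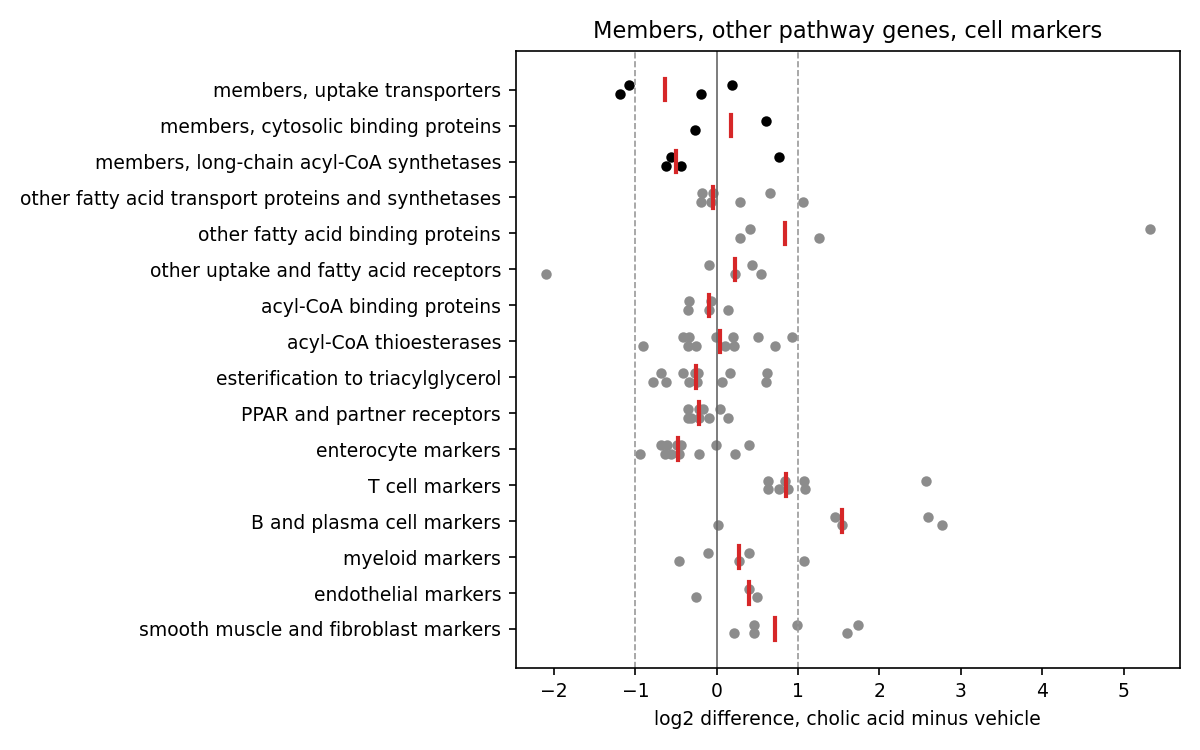
Log2 difference, cholic acid minus vehicle, of each measured gene in the members (black) and in other pathway and marker lists (grey); red bars are list medians and dashed lines mark 2-fold. The enterocyte median is -0.47 and the T cell and B and plasma cell medians are 0.86 and 1.54; the far right point is Fabp6.

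Only Slc27a1 changed sign among the members when the processing was varied. Over the 12 other processing settings, Cd36 had differences between -1.42 and -1.05 and Slc27a2 between -1.75 and -1.04, so both were at least 2-fold lower in 12 of 12. The -1.75 is the deposited value, which matches another spot, the one named Slc15a1 in the scanner files. For the spot named Slc27a2 itself the lowest was -1.30, with the percentile over all probes. Cd36 and Slc27a2 have 1 probe each, so settings that change only the naming, the filter on dim probes or the probe rule could not move their values. Acsl1, Acsl3, Acsl5, Slc27a4 and Fabp1 stayed below 0 and Fabp2 and Acsl4 above 0 in the same 12. Slc27a1 ranged from -0.04 to 0.24. Fabp1 ranged from -0.88 to -0.27 and Fabp2 from 0.06 to 0.61, so the size of their differences depended on the scaling.

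**Figure D5:**
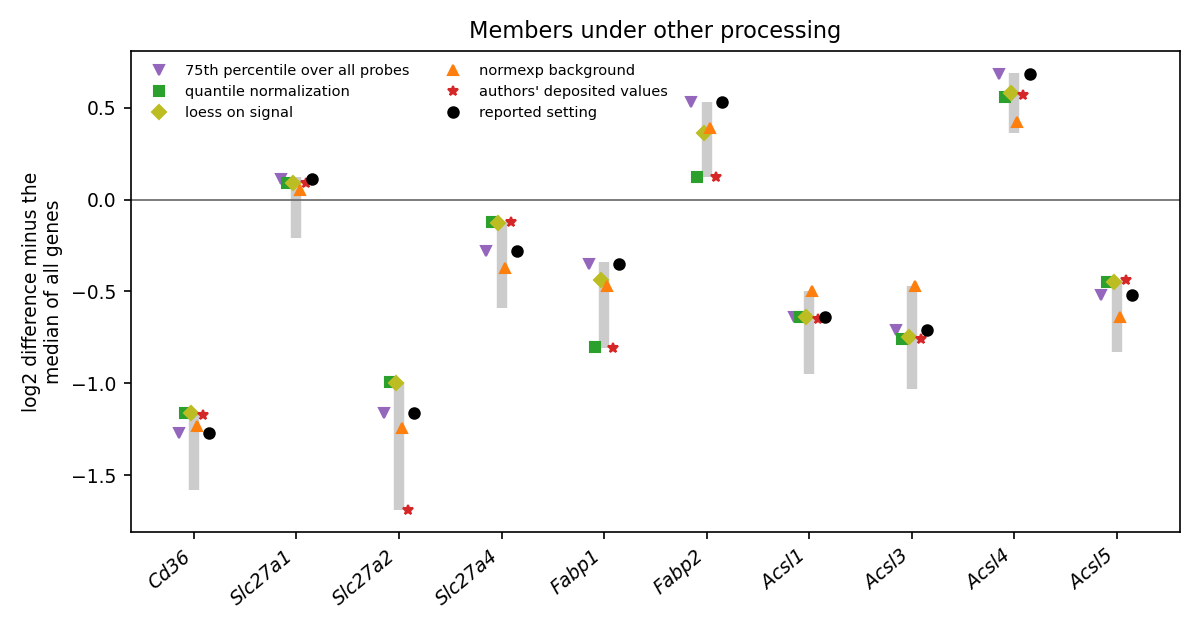
Log2 difference of each member minus the median of all genes, under the reported setting (black) and 5 of the other settings; grey bars span the reported setting and all 12 others. Cd36 and Slc27a2 stay lowest throughout. Fabp1 and Fabp2 shift down with quantile normalization and the authors' deposited values. Slc27a2 is lower with the deposited values, which for this gene match another spot.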

How the data were processed

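RNA of 2 samples was measured on 1-colour Agilent arrays (design 028005). Per the file headers, probes were placed on mm9. The deposited scanner files give the intensity of each spot from Feature Extraction, version 10.7.1.1 per the file headers and 9.5.1.1 per the submitters' processing notes. The processed signal is an intensity that the software had background-subtracted, per the file headers. A further deposited table from the authors holds linear intensities with a median of 10.09 on both arrays. Once sorted, its columns differ by at most 0.0243%, which is what quantile normalization leaves. On the log2 scale they followed the scanner signal with Pearson r of 0.9998 for cholic acid and 0.9999 for vehicle.

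Each array had 62976 spots, 3671 of them controls. Outlier-flagged spots were left out (119 with cholic acid, 124 with vehicle). Of 55681 probes, 24449 were well above background with cholic acid, 24203 with vehicle and 22613 (40.6%) on both. Spots of 1 probe were averaged on the log2 scale and reduced by the 75th percentile over those 22613 probes. A gene was the mean of those of its probes that passed on both arrays. Names came from accessions (27325 probes), symbols (3523) and synonyms (546) in a RefSeq table of GRCm38.p6, or else from the files (1136), and 23151 probes had none. With 1 array per group no p-value was computed, and the number of arrays limits the precision. Genes were counted by size, at 2-fold. The members and lists were chosen with earlier results of these data known. Named genes were all members and, of other lists, those 2-fold apart or else the 2 widest; of the marker lists, a few were cited after their values were seen, as were the genes with a bound and Ppara. Values of some marker genes are not reported here. The script was tested on simulated data. Tools were Python 3.11.15, numpy 2.4.6, pandas 2.3.3, matplotlib 3.10.9, R 4.3.3 and limma 3.58.1. Alternatives were other scalings (all probes, median, quantile, loess with a span of 0.3), normexp with an offset of 50, the deposited values, other filters on dim probes, other rules for the probes of a gene, naming by accession, flagged spots kept, and limits of 1.5-fold and 3-fold.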

Additional observations from a re-analysis of the deposited data

How the results depend on the processing

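The counts of members at least 2-fold lower (2) and at least 2-fold higher (0) were the same under all 12 other processing settings. The count below the median of all genes (7) was the same under 11 of them and 8 with no filter on dim probes. Naming by accession added 0 member probes and so left every value as reported. The other filters on dim probes and the other probe rules could not move the value of a member with 1 probe. The median member difference minus that of all genes, -0.43 as reported, was -0.55 with quantile normalization, -0.54 with the authors' deposited values and -0.75 with no filter. At a 1.5-fold limit 3 members were lower and 2 higher, and at a 3-fold limit 0 were lower. With no scaling between the arrays, a setting chosen after seeing the data, 4 were at least 2-fold lower. Of 120 member values under the alternatives, 44 moved by 0.094 or more, and 1, Slc27a1 with the percentile over all probes, changed sign. Among the others are the values that the naming, filter and probe rule settings could not move. Counts over all genes depended more on the setting: 826 higher and 262 lower (75.9% higher) as reported, 416 and 537 (43.7%) with the percentile over all probes, 538 and 391 (57.9%) with the median, 438 and 419 (51.1%) with quantile normalization, 492 and 374 (56.8%) with loess, 266 and 104 (71.9%) with normexp, 442 and 422 (51.2%) with the deposited values, 1470 and 521 (73.8%) with probes well above background on at least 1 array, 2864 and 613 (82.4%) with no filter, and 201 and 1365 (12.8%) with no scaling. All these count at 2-fold; as scaled for the report, 2249 were higher and 981 lower (69.6% higher) at 1.5-fold, and 176 and 42 (80.7%) at 3-fold. The 9 other settings at 2-fold moved the median of all genes by -0.23, -0.13, -0.15, -0.12, 0.10, -0.15, 0.01, 0.32 and -0.52 in this order. The cause was not tested. Low signal over background limits the dim member probes, those of Acsl3, Acsl4 and the first of Acsl1. No paired analysis was possible because each group has 1 sample.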
